A study of Homo sapiens with 32 samples.

Results

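The genes described here encode the enzymes that make cholesterol and the proteins that control them through SREBP, with 4 enzymes of fatty acid synthesis that the same factors govern. They were chosen by gene symbol from their place in these pathways, with earlier results of these data known. They number 28 of the 18980 coding genes that the authors listed. By role, 7 belong to the mevalonate arm, 11 to the sterol arm, 6 to the regulators and sterol transport, and 4 to fatty acid synthesis. All 28 had enough reads to be tested.

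RNA-seq was done on RH4 cells, an established line of human alveolar rhabdomyosarcoma, a muscle-lineage tumour. Cells grown in medium with fetal bovine serum were kept for 2 h or 6 h with 100 nM or 1000 nM of 1 of 4 compounds, A485, dCBP, IHK-44 and JQAD, in 16 libraries. The control libraries were DMSO, the solvent, at 2 h and 6 h, and a condition labelled NT, whose meaning the labels do not give, at 2 h and 6 h. A485 is known as an inhibitor of the acetyltransferase activity of CBP and p300, and dCBP and JQAD as names of degraders of 1 or both of these proteins. The labels do not say what IHK-44 is beyond the series' heading of CBP/p300 inhibitors or degraders. Each of the 20 conditions had 1 library, so the 100 nM and 1000 nM libraries of a compound, or DMSO and NT, stood in for replicates in every test. The p-values therefore measure the spread between such libraries, which contains any effect of dose, and nothing in the labels says that they came from separate cultures.

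Cholesterol is built from acetyl-CoA through mevalonate, the isoprenoid diphosphates, squalene and lanosterol, each step by its own enzyme. The genes of nearly all these steps are switched on by SREBP2, and those of fatty acid synthesis mainly by SREBP1, membrane-bound transcription factors that SCAP escorts to the Golgi for cleavage when sterols are scarce. INSIG proteins hold SCAP in the endoplasmic reticulum when sterols are plentiful, and INSIG1 is itself an SREBP target, so its mRNA is widely used as a gauge of SREBP activity.

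Libraries held 13466631 to 16799327 expected counts in coding genes, and a member had between 76 (CYP51A1) and 16894 (SCD) expected counts in a library. The muscle markers DES and CDH15 were at 266 to 465 CPM and 220 to 454 CPM (counts scaled to the same total of coding genes in each library), MYOD1 at 27.2 to 747 CPM and MYOG at 29.8 to 319 CPM, while EPCAM and KRT5 of epithelium were at 0 in all 20 libraries and PTPRC of blood cells at no more than 0.0601 CPM. Against DMSO, NT called 0 of the 28 genes by the quasi-likelihood test of edgeR (Benjamini-Hochberg adjustment), and 0% of the 13260 genes tested. None of the 28 had an unadjusted p under 0.05 in that comparison, and DESeq2 and limma called 0 as well. DMSO and NT were pooled as controls in the other tests.

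The promoters of the members give the sequence context of these measurements. RefSeq windows of 250 bases before the annotated start (GRCh38.p14) were found for 24 members, not for ACAT2, FDFT1, SQLE and FASN. Windows are shown for the 6 matched members with the smallest p at 6 h, because they are among the genes whose changes are described next: INSIG1 at chr7:155297628-155297877 (plus strand), HMGCS1 at chr5:43313413-43313662 (minus strand), SCD at chr10:100346983-100347232 (plus strand), SREBF1 at chr17:17836987-17837236 (minus strand), MSMO1 at chr4:165327419-165327668 (plus strand) and SREBF2 at chr22:41832855-41833104 (plus strand). Each reads 5′ to 3′ along the gene, and capitals mark the NF-Y box CCAAT or its reverse complement ATTGG and the sterol response element core TCACCCCAC.
INSIG1: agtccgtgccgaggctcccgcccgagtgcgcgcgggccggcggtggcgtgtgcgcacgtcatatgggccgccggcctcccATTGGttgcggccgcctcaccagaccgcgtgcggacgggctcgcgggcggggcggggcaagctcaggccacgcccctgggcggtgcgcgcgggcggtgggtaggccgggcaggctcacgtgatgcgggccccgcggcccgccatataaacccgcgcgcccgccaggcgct
HMGCS1: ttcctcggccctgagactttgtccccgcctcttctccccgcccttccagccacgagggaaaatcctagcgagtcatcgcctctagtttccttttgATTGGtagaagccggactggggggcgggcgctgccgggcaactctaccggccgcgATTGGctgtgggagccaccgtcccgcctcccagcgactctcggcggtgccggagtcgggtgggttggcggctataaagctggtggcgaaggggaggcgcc
SCD: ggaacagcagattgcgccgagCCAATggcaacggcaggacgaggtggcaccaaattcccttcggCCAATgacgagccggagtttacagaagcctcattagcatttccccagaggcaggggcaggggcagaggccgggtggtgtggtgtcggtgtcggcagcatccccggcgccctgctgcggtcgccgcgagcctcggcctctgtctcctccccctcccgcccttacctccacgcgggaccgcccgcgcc
SREBF1: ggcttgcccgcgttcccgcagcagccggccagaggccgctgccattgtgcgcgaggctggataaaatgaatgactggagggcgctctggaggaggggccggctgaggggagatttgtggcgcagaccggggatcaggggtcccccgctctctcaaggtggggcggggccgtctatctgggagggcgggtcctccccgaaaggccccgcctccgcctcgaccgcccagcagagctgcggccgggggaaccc
MSMO1: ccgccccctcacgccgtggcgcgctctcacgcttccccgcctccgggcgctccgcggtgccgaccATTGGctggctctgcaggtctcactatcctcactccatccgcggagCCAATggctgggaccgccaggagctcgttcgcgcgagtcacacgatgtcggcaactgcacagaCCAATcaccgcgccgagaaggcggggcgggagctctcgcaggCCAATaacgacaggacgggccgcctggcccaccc
SREBF2: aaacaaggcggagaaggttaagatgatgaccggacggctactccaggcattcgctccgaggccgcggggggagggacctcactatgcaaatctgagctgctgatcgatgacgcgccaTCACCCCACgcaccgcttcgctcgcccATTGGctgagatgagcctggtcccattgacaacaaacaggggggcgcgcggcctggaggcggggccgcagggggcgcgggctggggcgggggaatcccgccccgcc

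NF-Y is a factor known to work beside SREBP. Searched on both strands, CCAAT stood in 17 of the 24 member windows (70.8%), against 35.2% of the 10785 tested genes with a window and 32% of all 35116 windows. MSMO1 held 4 matches, HMGCS1 and SCD held 2 each, INSIG1 and SREBF2 held 1 each, and SREBF1 held none. The GC box GGGCGG, which Sp1 binds, stood in 23 windows (95.8%), against 66.7% of tested genes and 42.6% of all windows. TGACG, part of the site of CREB, the factor for which CBP is named, stood in 11 windows (45.8%), against 29.6% of tested genes and 21.2% of all windows. TCACCCCAC was found only in the window of SREBF2, against 0.315% of tested genes and 0.362% of all windows, and the looser form TCACNCCAC, which contains it, likewise (0.807% and 0.883%). No other form of the sterol response element was searched, so a window without a match is not shown to lack one. These are matches of letters and not measured sites. CCAAT stood in 9 of the 12 windows of members lower with IHK-44 at 6 h and in 8 of the 12 windows of other members. The observed over expected ratio of CpG had a median of 0.86 in the members, with a range of 0.66 to 1.14, and of 0.82 in tested genes.

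In control cells the members spanned a wide range of levels, compared here as FPKM because that scale allows for transcript length. SCD, which puts the double bond into stearate, was highest at 191 FPKM ± 11.4 (SD, n = 4, DMSO and NT at both times), followed by FDFT1, the squalene synthase, at 123 FPKM ± 4.72. ACLY, which makes cytosolic acetyl-CoA, stood at 105 FPKM ± 2.12 and FASN, the fatty acid synthase, at 98 FPKM ± 6.01, and their ranges overlapped. The factor genes differed: SREBF2 was at 94.9 FPKM ± 4.69 and SREBF1 at 13.3 FPKM ± 0.647, with no overlap. The INSIG genes differed too, INSIG1 at 34 FPKM ± 3.46 and INSIG2 at 3.57 FPKM ± 0.631. The lowest member was CYP51A1, the lanosterol demethylase, at 2.6 FPKM ± 0.31, next to INSIG2, whose range it overlapped. From NSDHL at 37.7 FPKM ± 2.74 down to MVK at 13 FPKM ± 1.12, each of the 14 members overlapped with its neighbour in the order. CYP51A1, FDPS, IDI1 and HSD17B7 have near-identical copies elsewhere in the genome, so reads may have been split and their levels are uncertain.

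Culture time was read in DMSO, in NT and in JQAD, which called no gene. From 2 h to 6 h, 14 of the 28 members were higher in all 4 pairs of libraries (DMSO, NT, 100 nM JQAD and 1000 nM JQAD), where 17.9% of the tested genes were, and 1 member, TM7SF2, was lower in all 4, where 13.5% were. The 14 were HMGCS1, MVK, IDI1, FDFT1, SQLE, MSMO1, NSDHL, SC5D, INSIG1, INSIG2, STARD4, ACACA, FASN and SCD. INSIG1 stood at 90.1 CPM in DMSO and 87.6 CPM in NT at 2 h, and at 101 CPM and 109 CPM at 6 h. SQLE, the squalene epoxidase, stood at 153 and 146 CPM at 2 h and at 181 CPM in each control at 6 h. STARD4, a carrier of cholesterol between membranes, went from 27.6 and 29.1 CPM to 41.1 and 40 CPM. For each of these genes the 6 h controls lay above the 2 h controls. The median change of the 28 members on the log2(CPM + 1) scale was 0.05 in DMSO, 0.16 in NT, 0.12 in 100 nM JQAD and 0.16 in 1000 nM JQAD, while genes of like level had medians of 0.01 to 0.03. Genes of like level are the 9885 tested genes whose mean CPM over the 20 libraries lay between the lowest and highest member means, 7.92 and 911 CPM. No member passed the test of 6 h against 2 h in DMSO and NT, in which edgeR called 0.0754% of genes (0.00754% higher and 0.0679% lower). Of the 28, 4 had an unadjusted p under 0.05, and DESeq2 and limma called 0. The largest fitted rise was that of STARD4, a log2 change of 0.52 (SE 0.16, adjusted p = 0.312).

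**Figure D1:**
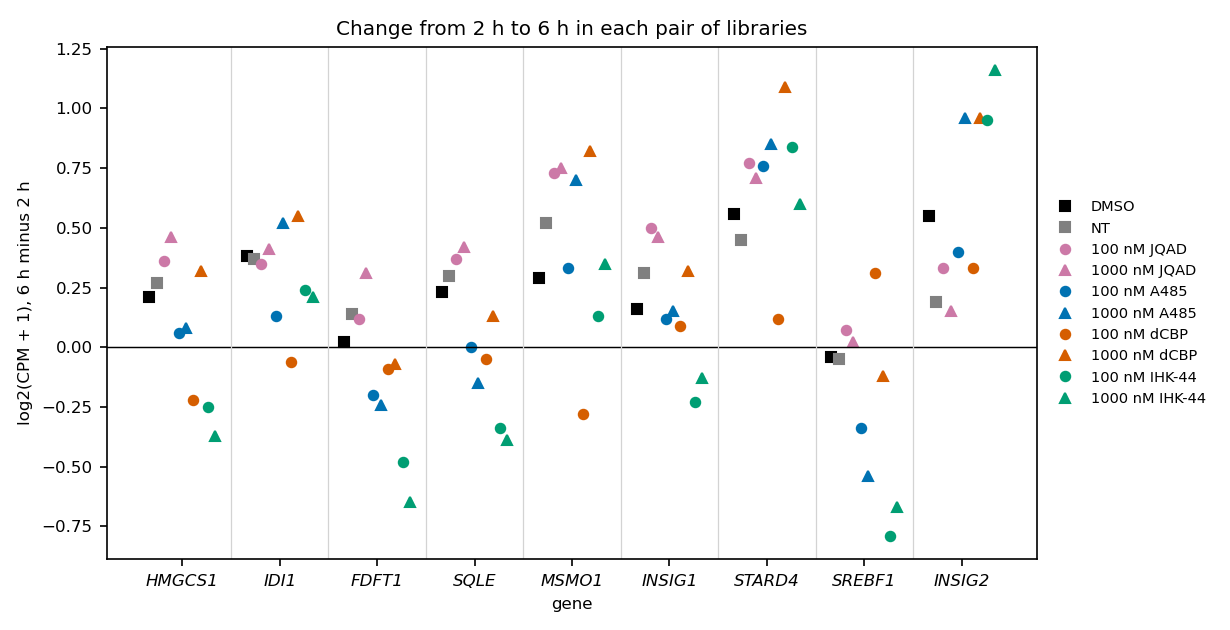
Change from 2 h to 6 h of 9 genes in each pair of libraries of the same treatment and dose, on the log2(CPM + 1) scale (6 h minus 2 h); each point is 1 pair of libraries. HMGCS1, FDFT1 and SQLE lie above 0 in DMSO, NT and JQAD and below 0 in both pairs of IHK-44.

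At 2 h the compounds touched few members. INSIG1 was lower with dCBP, by a log2 change of -0.51 (SE 0.12, adjusted p = 0.0262, edgeR), and with IHK-44, by -0.62 (SE 0.12, adjusted p = 0.00857). Its levels were 67.7 CPM and 61.4 CPM with 100 and 1000 nM dCBP, 62.6 CPM and 56.8 CPM with IHK-44, and 90.1 and 87.6 CPM in DMSO and NT, so treated and control libraries did not overlap. MSMO1, which oxidises the methyl groups of early sterols, was lower with IHK-44 at 30 CPM and 24.7 CPM against 46.6 CPM in DMSO and 42.3 CPM in NT (log2 change -0.75, SE 0.20, adjusted p = 0.042). These were the only members called at 2 h: 1 of 28 with dCBP, where 5.63% of all tested genes were called (2.67% lower and 2.96% higher), and 2 of 28 with IHK-44, where 4.88% were (2.45% lower and 2.43% higher). With A485, edgeR called 0 of 28 (0.0452% of all genes), with 5 at an unadjusted p under 0.05, and DESeq2 called 1 and limma 0. INSIG1 was at 72.9 CPM with 100 nM and 60.1 CPM with 1000 nM A485, below both controls, at an adjusted p of 0.136. With JQAD, edgeR called 0 of 28 and 0% of all genes, with 0 members at an unadjusted p under 0.05, and DESeq2 and limma called 0. Without DMSO or without NT at 2 h edgeR called 0 members for both compounds. Without 1000 nM dCBP or without 100 nM dCBP the dCBP count was 0, and the IHK-44 count was 0 without its 1000 nM library and 1 without its 100 nM library.

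With IHK-44 at 6 h 15 members were lower and 2 higher, 17 of 28 in all, where 42.1% of all tested genes were called (21.4% lower and 20.7% higher). The median fitted log2 change of the 28 members was -0.33, beside 0.06 for all tested genes. In bulk RNA a lower level per cell and a smaller share of expressing cells cannot be told apart. Leaving out each library in turn gave counts of 13 to 14. IDI1 and LSS did not pass in any of these 4 fits, TM7SF2 did not pass without DMSO, NT or 1000 nM IHK-44, and NSDHL did not without NT or 100 nM IHK-44.

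In the mevalonate arm HMGCS1 and IDI1 fell with IHK-44. HMGCS1, the HMG-CoA synthase, was at 92.1 CPM with 100 nM and 82.9 CPM with 1000 nM IHK-44 at 6 h, against 149 CPM in DMSO and 165 CPM in NT (log2 change -1.01, SE 0.12, adjusted p = 8.38e-06). The IHK-44 libraries were the lowest of all 20 for this gene. Of the other 6 members of the mevalonate arm, IDI1, the isomerase that makes dimethylallyl diphosphate, was lower at 41.3 and 43.8 CPM against 52.1 and 51.1 CPM (log2 change -0.45, SE 0.13, adjusted p = 0.0114). The kinases MVK and PMVK, the decarboxylase MVD, the thiolase ACAT2 and the farnesyl diphosphate synthase FDPS did not pass, with fitted log2 changes of -0.02, 0.27, 0.22, 0.01 and -0.18. The arm was thus divided, with 2 of 7 lower and a median of -0.02.

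In the sterol arm 6 of 11 members fell and 1 rose. SQLE, which commits squalene to sterols, was at 100 CPM and 95.4 CPM with 100 and 1000 nM IHK-44 against 181 CPM in both controls (log2 change -1.05, SE 0.10, adjusted p = 4.14e-06). FDFT1, the enzyme before it, was at 147 and 128 CPM against 236 CPM in DMSO and 250 CPM in NT (log2 change -0.99, SE 0.11, adjusted p = 7.26e-06). MSMO1 was at 33 and 31.7 CPM against 57 and 60.9 CPM (log2 change -1.04, SE 0.20, adjusted p = 0.000607). For all 3 genes both IHK-44 libraries lay well below both controls. The smaller falls were those of DHCR7, the last reductase of the pathway (log2 change -0.49, SE 0.12), LSS, which closes the sterol rings (-0.33, SE 0.12), and NSDHL, a sterol dehydrogenase (-0.32, SE 0.10). TM7SF2, a sterol reductase, went the other way, at 9.76 and 12.1 CPM against 6.15 CPM in DMSO and 6.11 CPM in NT (log2 change 0.67, SE 0.21, adjusted p = 0.0197). CYP51A1, HSD17B7, EBP and SC5D, which act on lanosterol and later sterols, had fitted log2 changes of 0.09, 0.30, 0.31 and 0.11 and did not pass.

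Among the regulators, INSIG1 had the largest fitted fall of all 28 members, at 53.5 CPM with 100 nM and 52 CPM with 1000 nM IHK-44 against 101 CPM in DMSO and 109 CPM in NT (log2 change -1.16, SE 0.12, adjusted p = 5.1e-06). Its counterpart INSIG2 rose, from 15.4 and 13.3 CPM in the controls to 26.3 and 32.1 CPM (log2 change 0.86, SE 0.18, adjusted p = 0.00144). The INSIG proteins share the task of retaining SCAP, and their mRNAs moved in opposite directions. SREBF1 was at 34 and 36 CPM against 61.1 CPM in DMSO and 56.6 CPM in NT (log2 change -0.92, SE 0.14, adjusted p = 8.72e-05), and no other of the 20 libraries was as low. SREBF2 was at 404 and 388 CPM against 487 CPM in both controls (log2 change -0.47, SE 0.09, adjusted p = 0.000774). The escort SCAP (log2 change 0.04, SE 0.11) and STARD4 (-0.20, SE 0.16) did not pass.

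All 4 members of fatty acid synthesis were lower with IHK-44 at 6 h. SCD was at 758 and 677 CPM against 1047 CPM in DMSO and 1087 CPM in NT (log2 change -0.74, SE 0.10, adjusted p = 4.23e-05). FASN was at 716 and 691 CPM against 905 and 882 CPM (log2 change -0.51, SE 0.11, adjusted p = 0.00162). ACACA, the carboxylase that makes malonyl-CoA, and ACLY had log2 changes of -0.42 (SE 0.09) and -0.37 (SE 0.09). In each of the 4 genes both IHK-44 libraries lay below both controls. The share of all tested genes with such an order of libraries was not counted, here or for the other genes described.

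**Figure D2:**
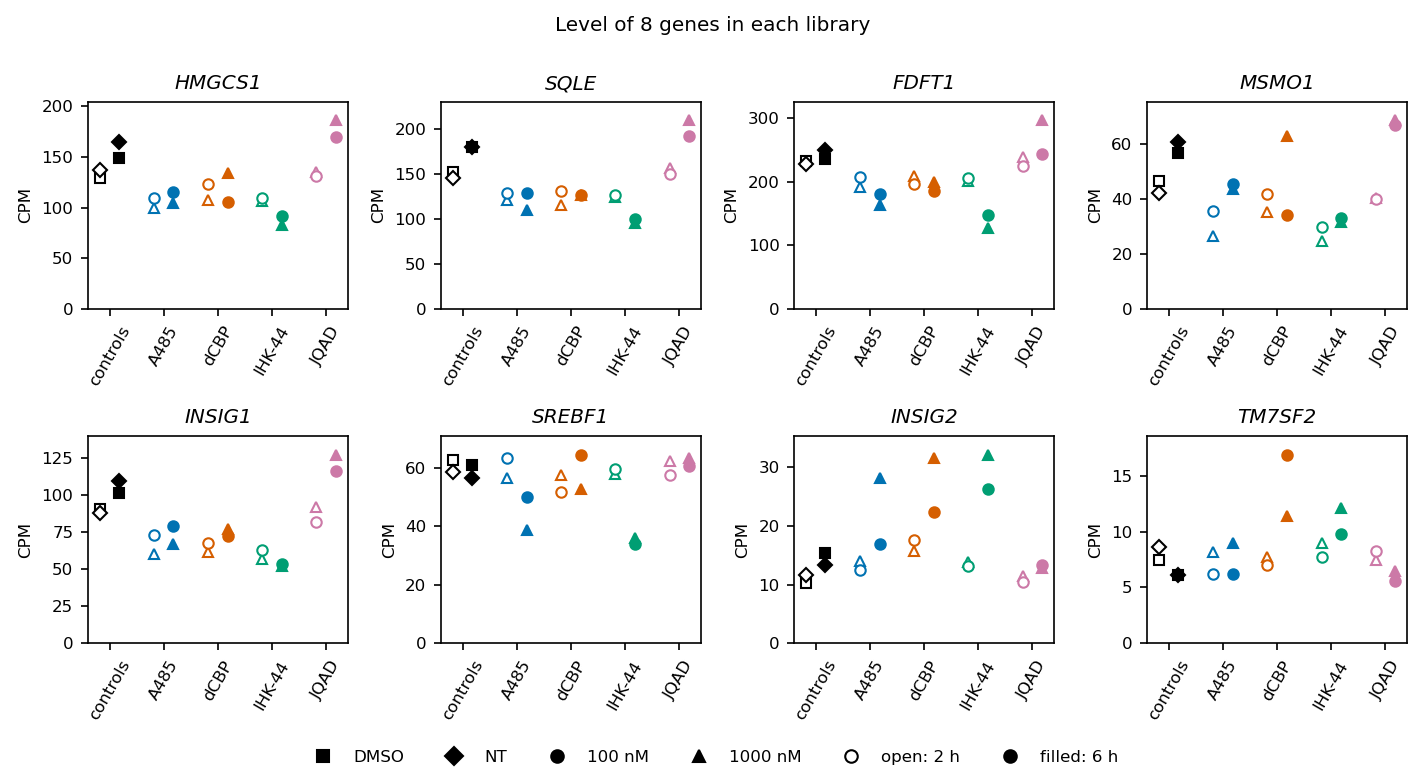
CPM of 8 genes in each of the 20 libraries, grouped by treatment; squares are DMSO, diamonds NT, circles 100 nM and triangles 1000 nM, open at 2 h and filled at 6 h, and the vertical axes start at 0. The filled IHK-44 points of HMGCS1, SQLE, FDFT1, INSIG1 and SREBF1 are the lowest points of their panels, and those of INSIG2 are above the controls.

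With A485 at 6 h 9 members were lower and 1 was higher, 10 of 28, where 16.6% of all tested genes were called (8.7% lower and 7.87% higher). SQLE was at 129 CPM with 100 nM and 110 CPM with 1000 nM against 181 CPM in both controls (log2 change -0.68, SE 0.10, adjusted p = 0.00163). INSIG1 was at 79.2 and 66.9 CPM against 101 and 109 CPM (log2 change -0.61, SE 0.12, adjusted p = 0.00584). HMGCS1 at 115 and 105 CPM and FDFT1 at 180 and 163 CPM had log2 changes of -0.60 (SE 0.12) and -0.59 (SE 0.11). The other falls were SREBF1 (-0.49, SE 0.14), DHCR7 (-0.38, SE 0.12), SCD (-0.37, SE 0.10), NSDHL (-0.37, SE 0.10) and SREBF2 (-0.32, SE 0.09). INSIG2 was the member that rose, at 16.9 and 28.1 CPM against 15.4 and 13.3 CPM (log2 change 0.56, SE 0.19, adjusted p = 0.0494), and most of its rise lay in the 1000 nM library; with RLE scaling or DESeq2 it did not pass. The median of the 28 members was -0.21, beside 0.02 for all tested genes. The count rested on single libraries: it was 1 without NT at 6 h, 1 without 1000 nM A485, 4 without DMSO at 6 h and 12 without 100 nM A485. With a lone library in a group, that library is assumed to vary like those of the other groups. SQLE was the member that passed in every one of these 4 fits. With DMSO as the only control, which leaves 1 control library at each time, no member was called.

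With dCBP at 6 h the members were divided, with 7 lower and 5 higher, 12 of 28, where 45.5% of all tested genes were called (22.4% lower and 23.2% higher). The share of members called was thus not above that of all genes. SQLE was at 127 CPM with either dose against 181 CPM in both controls (log2 change -0.66, SE 0.10, adjusted p = 0.000101). INSIG1 was at 72.2 and 76.9 CPM (log2 change -0.65, SE 0.12, adjusted p = 0.000482) and SCD at 764 and 794 CPM (log2 change -0.61, SE 0.10, adjusted p = 0.000218), below both controls. HMGCS1 at 106 and 134 CPM and FDFT1 at 185 and 199 CPM fell by 0.55 and 0.50 on the log2 scale (SE 0.12 and 0.11), and SREBF2 and ACACA by 0.28 and 0.29 (SE 0.09 each). The higher members were TM7SF2 at 16.9 and 11.4 CPM against 6.15 and 6.11 CPM (log2 change 1.05, SE 0.21, adjusted p = 0.000916), INSIG2 at 22.3 and 31.5 CPM (0.75, SE 0.18), MVD (0.54, SE 0.16), HSD17B7 (0.46, SE 0.17) and EBP, the sterol isomerase (0.44, SE 0.13). The median of the 28 was -0.03, beside 0.06 for all tested genes.

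The dCBP libraries at 6 h differed from each other. MSMO1 was at 34.3 CPM with 100 nM and 63 CPM with 1000 nM, SC5D, a sterol desaturase, at 102 and 164 CPM, and STARD4 at 29.9 and 51.3 CPM. In the same libraries TM7SF2 was at 16.9 and 11.4 CPM, DHCR7 at 94 and 75.7 CPM and MVD at 32.1 and 22.9 CPM. For MSMO1 the 100 nM library lay below both controls and the 1000 nM library above them. Across the tested genes, the log2 ratio of the 100 nM to the 1000 nM library had a correlation of -0.280 with log2 effective transcript length, over 13260 genes of 2 libraries. That length is the one deposited with the counts and not the span of the gene in the genome. The 100 nM library had the smallest share of TPM in coding genes, 27.9%. The part of either in these values was not tested. Without 1000 nM dCBP the count of members called was 18, and without DMSO it was 7. MVD and EBP did not pass without 100 nM dCBP, and INSIG2, HSD17B7, SREBF2 and ACACA did not without 1000 nM dCBP. Where the counts were scaled by library size alone, which moved the median of all tested genes from 0.06 to 0.22, 10 members were higher and 5 lower with dCBP, and 5 were higher and 12 lower with IHK-44. The fitted directions given here are relative to the TMM scaling. CPM and the log2 ratios of single libraries are scaled by the total of coding counts alone.

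**Figure D3:**
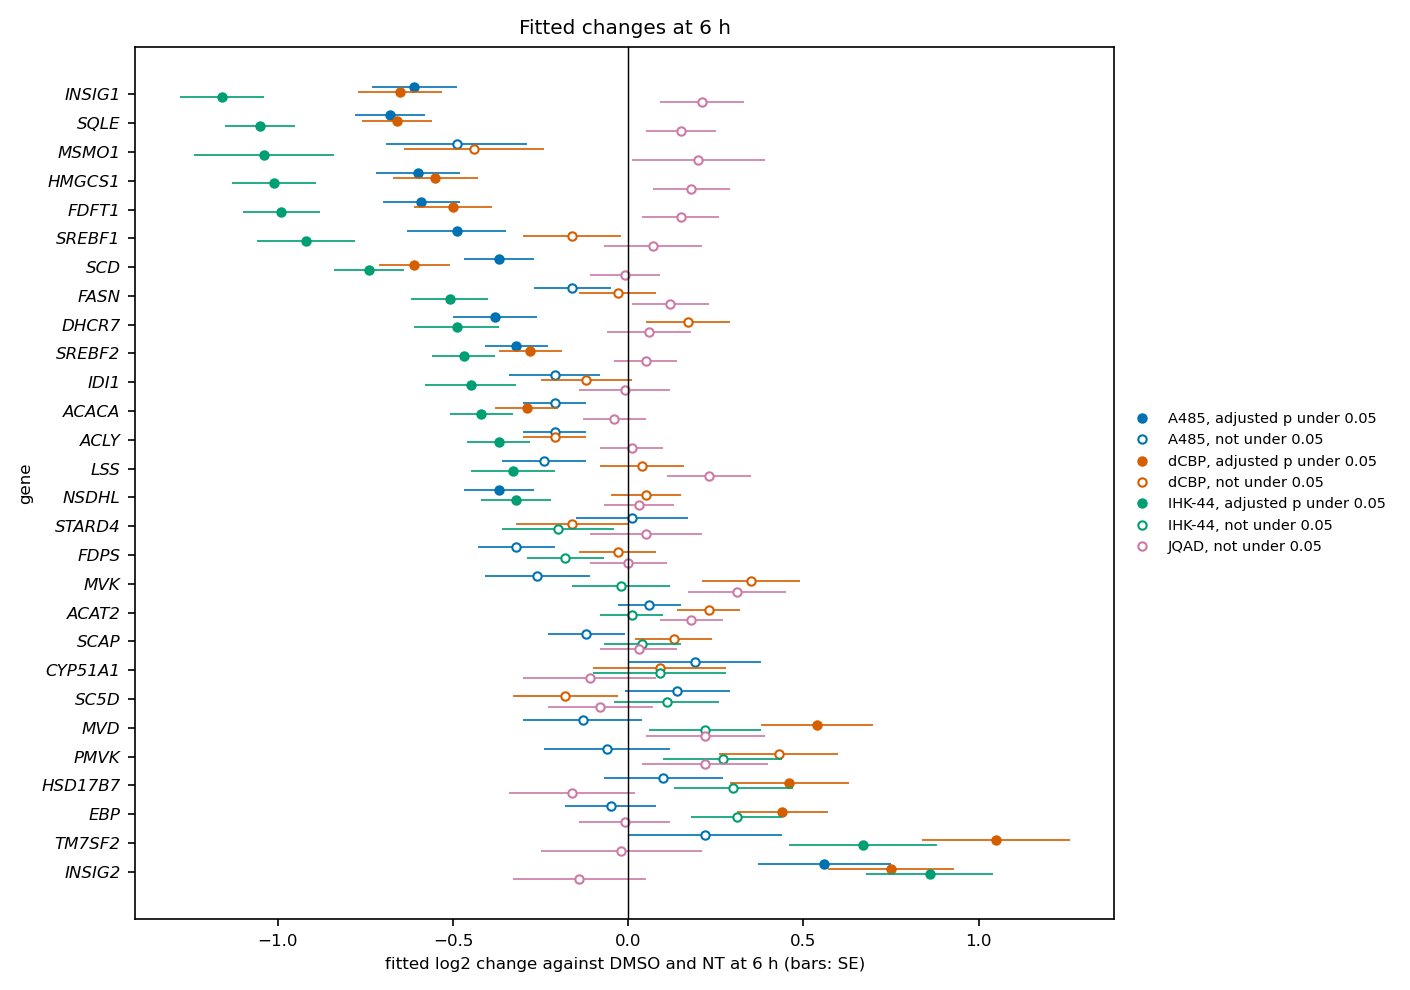
Fitted log2 change of the 28 genes at 6 h against DMSO and NT, with bars of 1 SE, ordered by the change with IHK-44; filled points have an adjusted p under 0.05 (edgeR). INSIG1 is lowest with IHK-44 at -1.16, and JQAD has no filled point.

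JQAD at 6 h called no member and 0% of all tested genes by edgeR, with 1 member at an unadjusted p under 0.05, and DESeq2 and limma called 0. INSIG1 was at 116 CPM with 100 nM and 127 CPM with 1000 nM against 101 and 109 CPM in the controls (log2 change 0.21, 95% interval -0.06 to 0.48). SQLE was at 193 and 210 CPM (0.15, interval -0.07 to 0.38) and HMGCS1 at 170 and 186 CPM (0.18, interval -0.08 to 0.43). For these 3 genes the JQAD libraries lay above both controls, without passing the test. For FDFT1, SCD and SREBF2, which were also lower with each of the other compounds, the JQAD libraries overlapped with the controls. The share of all tested genes above both controls with JQAD was not counted. The intervals of INSIG1, SQLE and HMGCS1 do not reach the falls fitted for IHK-44. The 1000 nM library had the highest level of the 20 libraries for HMGCS1, FDFT1 (296 CPM), SQLE and INSIG1. In it the log2 ratio to controls had a correlation of -0.250 with log2 effective transcript length across tested genes. This correlation varied among the other libraries. It was -0.229 in 100 nM JQAD at 2 h, -0.197 in DMSO at 2 h, 0.025 in DMSO at 6 h and 0.194 in 100 nM A485 at 6 h. The part of length was not tested.

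Set side by side at 6 h, 7 members were called with A485, dCBP and IHK-44 alike: FDFT1, HMGCS1, INSIG1, SCD, SQLE and SREBF2 were lower with each, and INSIG2 was higher with each. These comparisons share their control libraries, and of all 13260 tested genes 7.59% were lower with each and 5.14% higher with each. With dCBP, SREBF2 did not pass with library size alone as the scaling, with limma, with DMSO as the only control, or without DMSO, NT or 1000 nM dCBP. ACAT2, CYP51A1, FDPS, MVK, PMVK, SC5D, SCAP and STARD4 were called with none of the 3, and the other members with 1 or 2 of them. Among genes of like level in the IHK-44 libraries at 6 h, INSIG1 (mean log2 ratio -0.98 ± 0.03 SD, n = 2) stood at percentile 6.82 and INSIG2 (0.97 ± 0.20) at percentile 97.4. Those genes span the range of all members and are not matched to the level of either gene. With 1000 nM IHK-44 at 6 h the median log2 ratio was -0.12 over the members and 0.21 over genes of like level, and with 100 nM it was -0.19 and 0.18. With A485 at 6 h the medians were -0.15 (1000 nM) and -0.17 (100 nM), against 0.13 and 0.03. With dCBP they were 0.13 and 0.19, against 0.19 and 0.14. These medians are of CPM ratios without TMM scaling, and with dCBP the median of the fitted changes was -0.03.

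**Figure D4:**
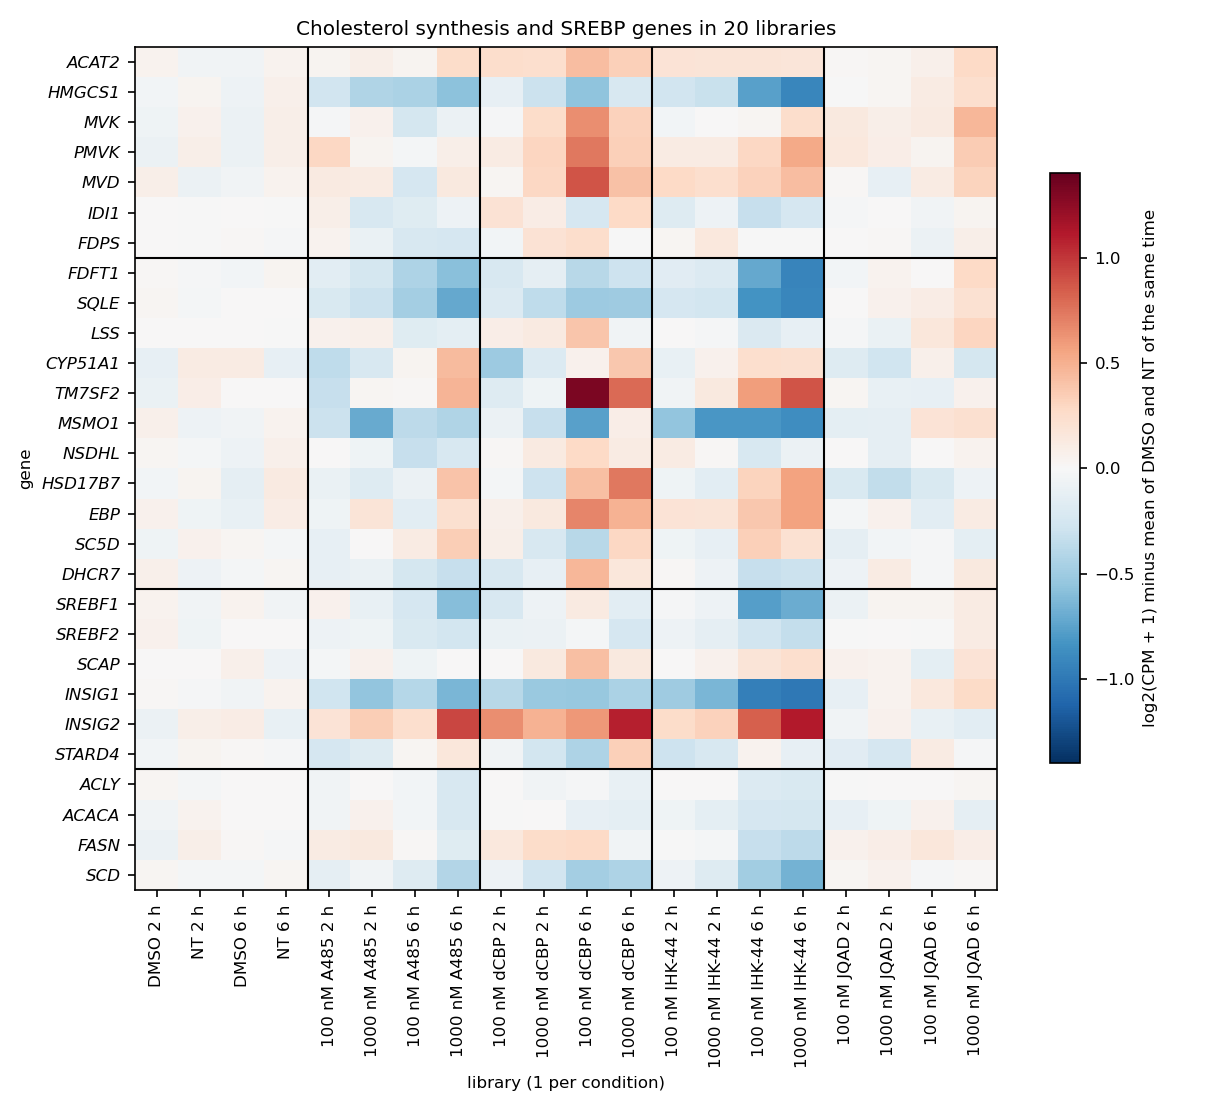
Log2(CPM + 1) of each of the 28 genes minus the mean of DMSO and NT of the same time, in the 20 libraries; black lines separate the mevalonate arm, sterol arm, regulators with transport, and fatty acid synthesis, and the treatments. HMGCS1, FDFT1, SQLE, MSMO1 and INSIG1 are blue (lower) with IHK-44 at 6 h, and TM7SF2 reaches 1.32 in 100 nM dCBP at 6 h.

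The differences between compounds at 6 h were tested directly for 3 pairs, each with the doses matched. A485 against IHK-44 called 6 members (12.9% of all tested genes were called, 9.41% higher and 3.47% lower), each higher with A485 than with IHK-44: INSIG1 by 0.56 (95% interval 0.28 to 0.83, adjusted p = 0.00925), HMGCS1 by 0.41 (0.15 to 0.67), FDFT1 by 0.40 (0.16 to 0.65), SQLE by 0.37 (0.14 to 0.60), SCD by 0.37 (0.14 to 0.60) and FASN by 0.36 (0.11 to 0.61) on the log2 scale. This count was 0 without 100 nM A485, 0 without 1000 nM IHK-44, 4 without 100 nM IHK-44 and 11 without 1000 nM A485, and it was 3 with a block for dose, where HMGCS1, FDFT1 and FASN did not pass. A485 against dCBP called 7 members (26.6% of all tested genes, 12.3% lower and 14.4% higher), all lower with A485: TM7SF2 by a log2 difference of -0.83 (interval -1.30 to -0.37, adjusted p = 0.0107), MVD (-0.67), MVK (-0.62), DHCR7 (-0.55), PMVK (-0.50), EBP (-0.49) and NSDHL (-0.42). None of these was called without 100 nM dCBP, 2 members were without 100 nM A485, and 14 were without 1000 nM dCBP. For the 6 genes lowered by both, the difference between A485 and dCBP was -0.02 for SQLE (interval -0.25 to 0.21), 0.05 for INSIG1 (-0.23 to 0.32), -0.05 for HMGCS1 (-0.31 to 0.20), -0.09 for FDFT1 (-0.34 to 0.16), -0.04 for SREBF2 (-0.24 to 0.17) and 0.24 for SCD (0.01 to 0.47), and none passed after adjustment.

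IHK-44 against dCBP called 0 members by edgeR (0.00754% of all tested genes), with 13 at an unadjusted p under 0.05. DESeq2 called 4 members and limma 0. The share of 0.00754% belongs to the edgeR fit, and the share of all tested genes called by DESeq2 is not given here. The edgeR result depended on the 1000 nM dCBP library. Among these 13, the fitted log2 difference (IHK-44 minus dCBP) was -0.76 for SREBF1 (95% interval -1.07 to -0.45), -0.66 for DHCR7 (-0.92 to -0.40), -0.51 for INSIG1 (-0.79 to -0.23) and -0.49 for FDFT1 (-0.74 to -0.24), at adjusted p-values of 0.237, 0.237, 0.364 and 0.364. These intervals are not adjusted for the number of genes. SREBF1 was at 64.5 and 52.9 CPM with 100 and 1000 nM dCBP, and its levels with IHK-44 were 34 and 36 CPM.

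The change between 2 h and 6 h in the response was tested as the interaction of compound and time. With IHK-44, 5 members fell further below the controls at 6 h than at 2 h. Of all tested genes 9.89% were called, 7.76% with a lower log2 change at 6 h and 2.13% with a higher one. The log2 differences were -0.82 for SREBF1 (SE 0.20, adjusted p = 0.0146), -0.77 for FDFT1 (SE 0.16), -0.76 for SQLE (SE 0.15), -0.67 for HMGCS1 (SE 0.16) and -0.57 for SCD (SE 0.15). SREBF1 was at 59.7 and 57.9 CPM with 100 and 1000 nM IHK-44 at 2 h, within the range of DMSO and NT at that time (58.7 to 62.8 CPM) for the 100 nM library and just below it for the 1000 nM library. INSIG1, already lower at 2 h, had an interaction of -0.54 (SE 0.17, adjusted p = 0.0582). The count of 5 was 2 without NT at 2 h, 2 without 1000 nM IHK-44 at 6 h, 2 without 100 nM IHK-44 at 2 h and 3 without DMSO at 2 h, DMSO at 6 h or NT at 6 h. FDFT1 and SQLE passed in each of the 8 fits that left out 1 library, and with DMSO as the only control no member was called. With dCBP, TM7SF2 was the member called (9.06% of all tested genes, 2.66% higher and 6.4% lower), its response higher at 6 h by a log2 difference of 1.23 (SE 0.30, adjusted p = 0.0204); it was not called without any 1 of the 4 controls, without 100 nM dCBP at 2 h or without 100 nM dCBP at 6 h, and without 1000 nM dCBP at 6 h 4 members were. With A485 edgeR called 0 (0.00754% of all genes) with 4 members at an unadjusted p under 0.05, and with JQAD 0 (0%) with 0 members; DESeq2 and limma called 0 for both, and edgeR called 2 for A485 without its 100 nM library at 6 h.

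No member was called between the doses. Between 1000 nM and 100 nM edgeR called 0 of 28 for A485 (0.929% of 13137 tested genes, 0.853% lower and 0.0761% higher), dCBP (0%), IHK-44 (0.107%) and JQAD (0%), with 2 members of A485 and 0 of the other compounds at an unadjusted p under 0.05. DESeq2 and limma called 0 for each. INSIG1 had the smallest p with A485, at a log2 difference of -0.33 (SE 0.11, adjusted p = 0.267), with 60.1 against 72.9 CPM at 2 h and 66.9 against 79.2 CPM at 6 h. Without 1000 nM or without 100 nM dCBP at 2 h, 3 members were called for dCBP.

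Of 35 other genes of sterol and fatty acid metabolism, 30 were tested. At 6 h 3 were lower and 2 higher with A485, 9 lower and 6 higher with dCBP, and 8 lower and 4 higher with IHK-44, and at 2 h 2 were lower with dCBP and 1 with IHK-44. As counts at 6 h these are 5 of 30 where 16.6% of all tested genes were called, 15 of 30 where 45.5% were and 12 of 30 where 42.1% were, so the list as a whole was close to all genes. ACSL3, which activates fatty acids, was at 111 and 117 CPM with 100 and 1000 nM IHK-44 against 281 CPM in DMSO and 286 CPM in NT at 6 h; its log2 change was -1.48 (SE 0.14), and -1.36 with dCBP and -0.96 with A485. ELOVL6, an elongase of saturated fatty acids, had log2 changes of -1.20, -1.35 and -0.68 with IHK-44, dCBP and A485 at 6 h. ACACB, the mitochondrial counterpart of ACACA, rose by a log2 change of 2.00 (SE 0.29), 1.89 (SE 0.29) and 0.95 (SE 0.30). The carboxylase genes thus moved in opposite directions with IHK-44 and, in the main fit, with dCBP. With dCBP the fall of ACACA did not pass with library size alone as the scaling, with limma, with DMSO as the only control or with an additive time term. Nor did it pass without DMSO, NT or 1000 nM dCBP at 6 h. MYLIP, a ubiquitin ligase induced by the sterol sensor LXR, was lower at 2 h with IHK-44 (-1.51, SE 0.23) and with dCBP (-1.0, SE 0.22). By group at 6 h with IHK-44, 8 of 9 tested genes of fatty acid synthesis and use were called, 1 of 10 of SREBP processing and its partners, 1 of 6 of the isoprenoid branch and 2 of 5 of LXR, export and storage, where 42.1% of all tested genes were called. With JQAD edgeR called 0 of the 30 at either time, with 0 at an unadjusted p under 0.05.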

How the data were processed

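Total RNA of RH4 cells was sequenced, and the 20 RNA-seq libraries of the 32 samples were used; the 11 ChIP-seq samples and the ChRO-seq sample were not analysed here. Per the submitters' processing notes the tools included STAR 2.5.3a and RSEM 1.3.3 and the build hg38, with no role given. Per the file headers, the authors deposited expected counts (estimated reads per gene), TPM, FPKM and CPM for coding genes, 1 library per file. TPM and FPKM as deposited were scaled over all quantified genes, of which the coding rows held 27.9% to 53.9% of TPM, while the deposited CPM summed to the same total over coding rows in each library. Between 87.9% and 88.8% of the expected counts were whole numbers.

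The 28 members and all lists were chosen with earlier results of these data known. The rounded expected counts were fitted with edgeR 4.0.16 in R 4.3.3 (quasi-likelihood test, TMM scaling, filterByExpr, Benjamini-Hochberg adjustment over 13260 genes, threshold 0.05). The model had 10 groups of treatment and time with 2 libraries each, 10 residual degrees of freedom and a common biological coefficient of variation of 0.104. Dose was fitted in the 16 treated libraries within compound and time (13137 genes, 4 residual degrees of freedom). The SE is the log2 change divided by the square root of F, and 95% intervals use a t quantile at the residual degrees of freedom. The p-values come from the edgeR test itself, so an interval can hold 0 at an unadjusted p under 0.05. This was so for MVK with JQAD at 6 h (edgeR unadjusted p = 0.0467, interval -0.01 to 0.63). Ratios of single libraries are differences of log2(CPM + 1), so changes of low genes are understated. The model code was tested on simulated counts. Alternatives were RLE scaling, library size alone, no filter, DESeq2 1.42.0, limma 3.58.1 on log2(CPM + 1), DMSO as the only control, an additive time term, a pseudocount of 0.1, leaving out each library, and blocks that pair libraries by dose or by treatment and dose. Counting error at these depths is small for most members, and the number of libraries limits precision. All 28 members are named; of other genes, at most 3 called per comparison, smallest p first. Motifs were searched in the 250 bases before the start, leaving out the 50 after it.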

Additional observations from a re-analysis of the deposited data

Results flagged for a closer look

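Members whose response differed between times or between compounds by a test of the difference itself are listed here as values. Counted in either direction, the share of members was not above that of all tested genes for dCBP over time and for A485 against dCBP. With IHK-44, 5 of 28 members had a response that differed between 2 h and 6 h (HMGCS1, FDFT1, SQLE, SREBF1 and SCD), where 9.89% of all tested genes did, and with dCBP 1 of 28 did (TM7SF2), where 9.06% did. At 6 h, 7 of 28 members differed between A485 and dCBP (MVK, PMVK, MVD, TM7SF2, NSDHL, EBP and DHCR7), where 26.6% of all tested genes did, and none was called without 100 nM dCBP. Between A485 and IHK-44, 6 of 28 differed (HMGCS1, FDFT1, SQLE, INSIG1, FASN and SCD), where 12.9% of all tested genes did, and none was called without 100 nM A485 or without 1000 nM IHK-44.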

How the results depend on the processing

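The labels give no replicate numbers that pair libraries of different groups. Pairings by condition were added after seeing the data. With a block for treatment and dose, which pairs the 2 h and 6 h libraries, the time dependence of IHK-44 held 6 members and that of dCBP 1. With a block for dose, which pairs equal doses of different compounds, A485 against dCBP held 6, A485 against IHK-44 3 and IHK-44 against dCBP 0. Counts from alternative fits, below and in the sections above, are of the 28 members called. The share of all tested genes called in the same alternative fit is not given, so these counts cannot be set against it. With library size as the only scaling the count was 1 for IHK-44 at 2 h, 2 for the time dependence of dCBP and 11 for A485 against dCBP. Without a filter it was 2 for IHK-44 against dCBP. With DESeq2 it was 1 for A485 at 2 h, 2 for dCBP at 2 h and 4 for IHK-44 against dCBP, and with limma 1 for IHK-44 at 2 h and 11 for A485 against dCBP. With DMSO as the only control it was 0 for dCBP and IHK-44 at 2 h, 0 for A485 and 7 for dCBP at 6 h, and 0 for the time dependence of dCBP and of IHK-44. An additive time term fits 1 effect common to 2 h and 6 h, which is not a count at either time, and by it A485 called 4 members, dCBP 9 and IHK-44 13. The cause was not tested, except that DMSO alone leaves fewer libraries. Leaving out each library in turn gave 0 to 1 for A485, 0 for dCBP and 0 to 1 for IHK-44 at 2 h; 1 to 12, 7 to 18 and 13 to 14 at 6 h; 0 to 2, 0 to 4 and 2 to 5 for their time dependence; 0 to 14 for A485 against dCBP, 0 to 11 for A485 against IHK-44, 0 to 15 for IHK-44 against dCBP and 0 to 3 for the dose of dCBP, and 0 for the other comparisons. Of 61 calls of single genes, 60 were kept with RLE scaling, 51 with library size alone, 60 without a filter, 58 with DESeq2 and 51 with limma, and none changed sign under these settings. DMSO as the only control kept 20 of 48, the additive time term 27 of 42, the block for treatment and dose 6 of 6, the block for dose 9 of 13, and leaving out a library 158 of 268, with no change of sign. The median log2 ratio of the members in a treated library moved by no more than the SD between the doses in 15 of 16 libraries with a pseudocount of 0.1 and in 11 of 16 with DMSO alone. Depth limits only the lowest members, such as CYP51A1.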
